A study of Mus musculus with 1470 samples.

Results

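The genes described here are 9 integrin chains of leukocytes: *Itgal*, *Itgam*, *Itgax*, *Itga1*, *Itga4* and *Itgae*, which encode alpha chains, and *Itgb1*, *Itgb2* and *Itgb7*, which encode beta chains. They were found by symbol among the 14915 genes of the expression table, and all 9 had a row. Integrins are adhesion receptors made of an alpha and a beta chain. In leukocytes they hold the cell to endothelium, matrix and other cells, and chemokine or antigen receptor signals switch them from a bent to an extended form. *Itgal* (CD11a), *Itgam* (CD11b) and *Itgax* (CD11c) pair with *Itgb2* (CD18) and bind ICAMs, complement fragments and fibrinogen. *Itga4* pairs with *Itgb1* to bind VCAM-1 and fibronectin, or with *Itgb7* to bind MAdCAM-1, the address of gut vessels. *Itgae* (CD103) pairs with *Itgb7* and binds E-cadherin on epithelium, and *Itga1* (CD49a) pairs with *Itgb1* and binds collagen. In the liver, LFA-1 (*Itgal* with *Itgb2*) is known for holding lymphocytes in the sinusoids, and CD49a for marking tissue-resident T cells and innate lymphoid cells.

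In the mouse genome (GRCm38, the sequence of mm10), *Itgal*, *Itgam* and *Itgax* lie in that order on chromosome 7, at 127296139 to 127335137, 128062640 to 128118491 and 128129526 to 128150657. The other genes are spread over chromosomes 2 (*Itga4*), 8 (*Itgb1*), 10 (*Itgb2*), 11 (*Itgae*), 13 (*Itga1*) and 15 (*Itgb7*). The RefSeq promoter table used here matched 6 of the 9 genes: *Itgam*, *Itgax*, *Itga4*, *Itga1*, *Itgb1* and *Itgb7*. The 250 bases before the start that this table gives are printed for 4 alpha chains, because their genes were read highest in different cells: *Itgam* in MoMac/DC-like, NK-like and neutrophil-like cells, *Itgax* in pDC-like, MoMac/DC-like and NK-like cells, *Itga4* in MoMac/DC-like and NK-like cells, and *Itga1* in endothelial-like cells. For *Itgax* the table's start lies inside the gene as bounded above, so the last bases of its stretch overlap the gene. Capitals mark the core letters GAGGAA, bound by the myeloid factor PU.1 and other ETS factors, and TGTGGT, bound by RUNX factors, both searched on both strands.
Itgam (chr7:128062390-128062639, plus strand): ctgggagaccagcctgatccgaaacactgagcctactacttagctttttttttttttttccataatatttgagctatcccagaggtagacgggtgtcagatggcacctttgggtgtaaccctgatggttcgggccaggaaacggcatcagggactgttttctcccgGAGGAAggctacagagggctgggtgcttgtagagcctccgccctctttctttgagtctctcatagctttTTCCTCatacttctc
Itgax (chr7:128129300-128129549, plus strand): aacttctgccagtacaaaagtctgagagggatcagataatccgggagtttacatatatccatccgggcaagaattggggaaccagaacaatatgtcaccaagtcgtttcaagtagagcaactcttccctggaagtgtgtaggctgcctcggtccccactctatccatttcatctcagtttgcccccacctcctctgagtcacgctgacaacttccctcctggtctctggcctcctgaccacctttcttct
Itga4 (chr2:79255176-79255425, plus strand): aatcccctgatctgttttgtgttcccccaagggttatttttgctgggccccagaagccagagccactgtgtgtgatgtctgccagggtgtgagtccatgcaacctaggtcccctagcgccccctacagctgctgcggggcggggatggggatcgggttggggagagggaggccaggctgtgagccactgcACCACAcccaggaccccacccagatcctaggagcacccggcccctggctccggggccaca
Itga1 (chr13:115101965-115102214, minus strand): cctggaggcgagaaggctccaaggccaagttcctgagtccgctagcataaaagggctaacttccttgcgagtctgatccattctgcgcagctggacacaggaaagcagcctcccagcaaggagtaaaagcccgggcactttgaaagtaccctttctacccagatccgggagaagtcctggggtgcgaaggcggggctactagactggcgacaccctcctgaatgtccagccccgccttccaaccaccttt
The *Itgam* stretch held GAGGAA on its own strand, 84 to 79 bases before the start, and again on the opposite strand, 15 to 10 bases before it. The *Itga4* stretch held TGTGGT on the opposite strand, 60 to 55 bases before the start, and the *Itgax* and *Itga1* stretches held neither. Of 32851 promoters of the same length, 23.3% held GAGGAA and 14% held TGTGGT, so a match is a description and not a binding site.

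Full-length Smart-seq2 RNA profiles came from 1470 live-sorted liver non-parenchymal cells (NPCs) of 6 male wild-type C57BL/6J mice. The 3 high-fat diet (HFD) mice were fed the diet for 9 weeks from 5 weeks of age and gave 752 cells, and the 3 normal diet (ND) mice gave 718. Livers were perfused and digested in the anesthetized mouse and most hepatocytes were spun out, so the remaining hepatocytes are a residue. Only males were studied, and each mouse is 1 replicate. The estimated reads on exons had a median of 88333 to 199893 a cell in the 6 mice, and the median number of genes was 1595.5 in HFD mouse 2 against 2363.5 to 3163 in the others. HFD mouse 2 stood apart in this way.

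Cells were clustered on variable genes other than the integrins, and clusters were named from marker genes. The classes were endothelial-like (463 cells), Kupffer-like (243), monocyte-derived macrophage and dendritic (MoMac/DC)-like (58), T-like (21.4% of all cells, in 3 clusters), B-like (247) and NK-like (42), with small neutrophil-like (15), plasmacytoid dendritic (pDC)-like (22), hepatocyte-like (36) and erythrocyte-like (29) classes. The names rest on these markers, so the following describes the naming and is no independent check of it. All 8 endothelial, 7 Kupffer, 6 T, 7 B and 6 NK markers and 8 of 11 MoMac/DC markers were at least 1 log2 unit higher in their own class than in the other cells. In the T-like cluster of 84 cells, of which 61 came from HFD mouse 2, only 4 of 6 T markers were that far up. Levels below are the mean of log2(RPKM + 1) over the cells of a class in a mouse, with the SD over mice with at least 5 cells of the class. RPKM are reads scaled by transcript length and by the mapped reads of the cell. In the median cell 1 read was worth 0.74 RPKM for *Itga1* and 3.01 for *Itgb7*. Levels and shares at a fixed RPKM are therefore only roughly comparable between genes.

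The integrin genes differed between the cell classes. *Itgal* and *Itgb2* were high in T-like, NK-like and MoMac/DC-like cells, intermediate in Kupffer-like cells and low in B-like and endothelial-like cells. *Itga1* was highest in endothelial-like cells, *Itga4* in MoMac/DC-like and NK-like cells, and *Itgb7* in T-like cells. Among the 6 large classes *Itgb1* was low only in B-like cells. It was also low in pDC-like, hepatocyte-like and erythrocyte-like cells, at 1.58, 1.18 and 1.64 in the 2 or 3 mice with at least 5 of them. The class means of *Itgae* were all near 0. In the limma fit of class means per mouse, 65 of 105 tests of a member between 2 of the 6 classes passed an adjusted p of 0.05, against 32.5% of the tests of all genes, and 77 had an unadjusted p of 0.05 or less. Of the 9 genes, 7 passed the filter on low values, a mean level of 1, and *Itgax* and *Itgae* did not. In the 10 pairs of classes that all 6 mice had, 51 of 70 tests passed, 47 of them with the same sign in all 6 mice. Without HFD mouse 2 the count was 59 of 105. The calls lost without it were *Itgam* for endothelial-like and Kupffer-like against NK-like cells, *Itga4* and *Itgb1* for endothelial-like against Kupffer-like cells, *Itgal* for Kupffer-like against MoMac/DC-like cells and *Itgb7* for MoMac/DC-like against B-like cells, with adjusted p-values of 0.0507 to 0.0869.

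By pair of classes, 3 to 6 of the 7 members were called in 13 pairs. Against endothelial-like cells 5 were called for Kupffer-like (43.8% of all genes), 6 for MoMac/DC-like (42.9%), 5 for T-like (54.6%), 5 for B-like (44.4%) and 6 for NK-like cells (21.2%). Against Kupffer-like cells 5 each were called for MoMac/DC-like (41.6%), T-like (59.3%), B-like (42.9%) and NK-like cells (17.6%). MoMac/DC-like cells gave 3 calls against T-like (26.7%) and 6 against B-like cells (35.3%), and B-like cells gave 6 against T-like (38.8%) and 3 against NK-like cells (7.33%). The share of members was above that of all genes in these 13 pairs, and how much of this comes from the choice of members as leukocyte genes was not tested.

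**Figure D1:**
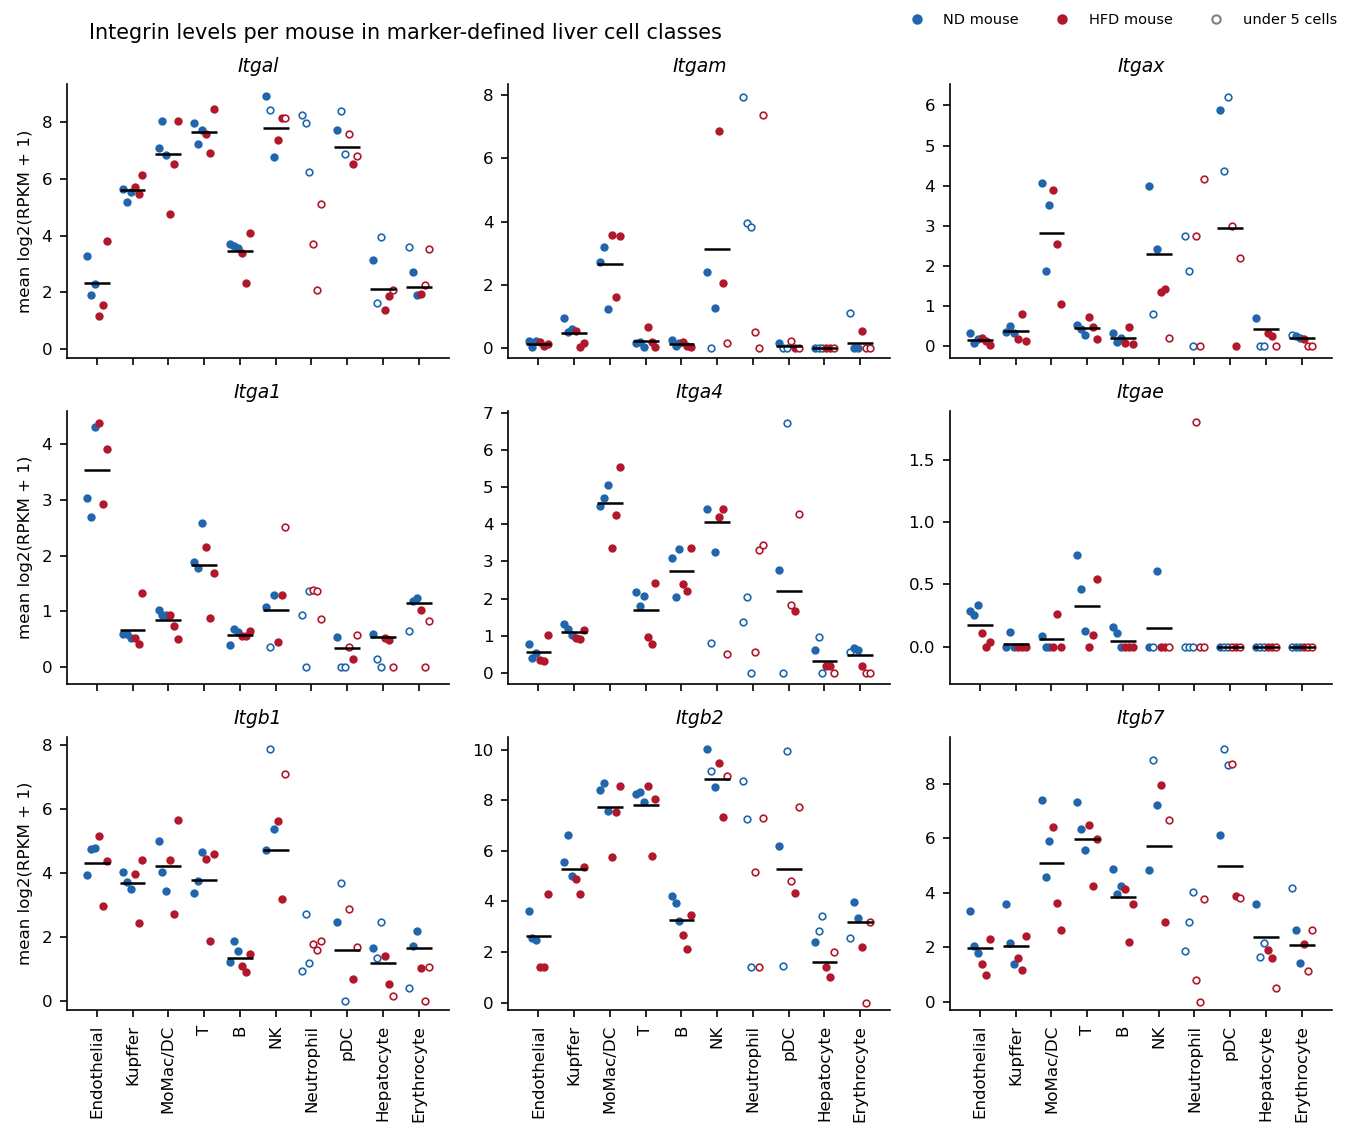
Levels of the 9 integrin genes, as mean log2(RPKM + 1) on the vertical axis, in 10 cell classes on the horizontal axis. Each point is a mouse (blue ND, red HFD, open with under 5 cells) and each line the mean over mice with at least 5 cells. Among the 6 large classes *Itgal* runs from 2.34 in endothelial-like cells to 7.80 in NK-like cells, with hepatocyte-like and erythrocyte-like cells lower still at 2.13 and 2.18, and *Itga1* is highest, at 3.54, in endothelial-like cells.

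*Itgb2*, the shared chain of the leukocyte-specific integrins, had the widest range of levels. In the 6 mice it was lowest at 5.80, with a median of 8.15 and a highest value of 8.55, in T-like cells. In B-like cells the lowest, median and highest mice were at 2.14, 3.33 and 4.21, so the T-like and B-like values did not overlap. The difference was 4.54 ± 0.26 (SE, log2 scale, n = 6 mice, limma adjusted p = 1.05e-07), with T-like cells higher in 6 of 6 mice and an exact sign-flip p of 0.03125, the smallest that 6 mice allow. Kupffer-like cells stood between them at 5.29 ± 0.78 (SD, n = 6), 2.53 below T-like cells (adjusted p = 3.22e-06) and 2.02 above B-like cells (adjusted p = 7.47e-06). MoMac/DC-like cells (7.75 ± 1.10) and T-like cells (7.81 ± 1.01) did not differ beyond their spread, with a difference of -0.06 ± 0.48 (adjusted p = 0.945). NK-like cells were at 8.85 ± 1.17 in the 4 mice with at least 5 of them, 1.22 above the T-like cells of those mice, and the test of that difference did not pass (adjusted p = 0.202).

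*Itgal*, the alpha chain of LFA-1, followed nearly the same order. Its 6 T-like values ran from 6.92 over a median of 7.66 to 8.44, and its 6 Kupffer-like values from 5.18 over 5.58 to 6.12, again without overlap. The Kupffer-like level was 2.03 ± 0.21 lower (limma adjusted p = 1.56e-06, lower in 6 of 6 mice). B-like cells (3.46 ± 0.59) were 4.19 ± 0.19 below T-like cells (adjusted p = 1.17e-08) and 1.12 above endothelial-like cells (2.34 ± 1.01, adjusted p = 0.00244). The last of these calls was lost in the fit without the mouse term (adjusted p = 0.0507). T-like and NK-like cells differed by -0.26 ± 0.47 (adjusted p = 0.866) and T-like and MoMac/DC-like cells by -0.77 ± 0.41 with MoMac/DC-like cells lower (adjusted p = 0.201). *Itgal* passed the test in 12 of its 15 pairs of classes and *Itgb2* in 11.

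*Itgam*, the alpha chain of the complement receptor Mac-1, was a gene of few cells. It reached 10 RPKM in 37.9% of MoMac/DC-like, 28.6% of NK-like and 46.7% of the 15 neutrophil-like cells, but in 4.94% of Kupffer-like and 1.90% of T-like cells. Its MoMac/DC-like level, 1.26 to 3.58 over the 6 mice with a median of 2.97, lay above every Kupffer-like value (0.06 to 0.96, median 0.53). That difference was 2.18 ± 0.39 (limma adjusted p = 0.000841, and 0.0746 where RPKM were averaged before the logarithm). *Itgam* passed the filter on low values only through MoMac/DC-like and NK-like cells, so the direction of its 6 calls, all with one of these classes higher, follows from the filter. The NK-like mean, 3.15 ± 2.53 (n = 4), rested on unequal mice, with values of 2.41, 1.27, 6.88 and 2.06, and the higher level over Kupffer-like cells (adjusted p = 0.0457) was lost under 6 alternatives, among them the fit without HFD mouse 2 (adjusted p = 0.0869).

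*Itgax*, which encodes CD11c, a marker of dendritic cells, reached 10 RPKM in 45.5% of pDC-like, 39.7% of MoMac/DC-like, 28.6% of NK-like and 26.7% of the 15 neutrophil-like cells. In T-like, Kupffer-like, B-like and endothelial-like cells the share was between 0.40% and 3.81%. MoMac/DC-like cells with *Flt3*, the dendritic growth factor receptor, at 1 RPKM or more and *Cx3cr1* under it (16 cells) had *Itgax* at 10 RPKM in 68.8%. The 28 cells with *Cx3cr1*, a monocyte receptor, and no *Flt3* had it in 35.7%. The split came in groups of at most 4 *Flt3* cells a mouse, so no test was run.

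*Itga4*, the alpha chain of VLA-4, gave the clearest step among macrophages. MoMac/DC-like cells were at 3.36 to 5.53 in the 6 mice, with a median of 4.60, and Kupffer-like cells at 0.91 to 1.32, with a median of 1.09. All 6 MoMac/DC-like values were above all Kupffer-like values, by 3.48 ± 0.34 (limma adjusted p = 6.16e-06). MoMac/DC-like and NK-like cells did not differ beyond their spread (0.22 ± 0.58, adjusted p = 0.865). Among lymphocytes the order was NK-like (4.07 ± 0.55, n = 4), B-like (2.74 ± 0.59, n = 6) and T-like (1.70 ± 0.68, n = 6). The B-like level was above the T-like level in 6 of 6 mice, by 1.04 ± 0.20 (adjusted p = 0.0018), which did not hold where RPKM were averaged before the logarithm or without the mouse term (highest adjusted p = 0.356). NK-like cells were 2.58 above T-like cells in 4 of 4 mice, just short of the threshold (adjusted p = 0.0524), and 1.32 above B-like cells in 3 of 4 (adjusted p = 0.146). Of 107 T-like cells with *Itga4* at 1 RPKM, 86.9% also had *Itgb7* and 64.5% *Itgb1*, against 79.3% and 71.2% of T-like cells without it.

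*Itgb7*, whose partners are *Itga4* and *Itgae*, was highest in T-like cells, at 4.23, 6.15 and 7.33 in the lowest, median and highest mouse. B-like cells were at 2.20, 4.06 and 4.88, so the groups overlapped at their edges. Within mice T-like cells were higher in 6 of 6, by 2.15 ± 0.20 (limma adjusted p = 6.39e-06, and 0.144 where RPKM were averaged before the logarithm). Kupffer-like cells were at 2.05 ± 0.88 and endothelial-like cells at 1.97 ± 0.81, and these neighbors did not differ beyond their spread (-0.08 ± 0.17, adjusted p = 0.745). Nor did T-like cells pass against MoMac/DC-like cells, which were 0.90 lower (adjusted p = 0.172), or against NK-like cells (0.18 ± 0.72, adjusted p = 0.948). Levels in MoMac/DC-like cells were uneven, from 2.63 to 7.39 over the mice. By cell, the *Flt3* cells had a median of 389 RPKM and the *Cx3cr1* cells one of 5.55. In mean RPKM, pDC-like cells were at 89.8% and B-like cells at 57.9% of the T-like level.

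*Itgae*, the marker of epithelial residence, was above 0 in 55 of the 1470 cells. The T-like level in the lowest, median and highest mouse was 0.00, 0.30 and 0.73, and no class mean was over 0.33. Only 12 T-like cells reached 10 RPKM, or 3.81% of them. Of these 12 cells 58.3% had *Cd8a* at 10 RPKM, against 12.9% of the other T-like cells, and 50% had *Cxcr6*, against 73.6%. *Cd8a* marks cytotoxic T cells, and *Cxcr6* is a receptor of liver-resident lymphocytes. The cells were pooled over mice and these shares were not tested.

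*Itga1* was highest in endothelial-like and next in T-like cells. It passed the filter on low values only through endothelial-like cells, so the direction of its calls with that class higher follows from the filter. Endothelial-like cells were at 2.68, 3.47 and 4.38 in the lowest, median and highest mouse. T-like cells followed at 0.88, 1.83 and 2.59, and all 6 were below every endothelial-like value. The difference of these classes was 1.71 ± 0.23 (limma adjusted p = 4.12e-06), and T-like cells were above B-like cells by 1.25 ± 0.22 (adjusted p = 0.000965) and above Kupffer-like cells by 1.17 ± 0.25 (adjusted p = 0.00126), each in 6 of 6 mice. The T-like level over MoMac/DC-like cells (0.98, adjusted p = 0.0331) was lost under 9 alternative settings. NK-like cells were at 1.03 ± 0.40 in 4 mice and did not pass against T-like cells (adjusted p = 0.436).

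*Itgb1*, the common chain of the matrix-binding integrins, was between 3.67 and 4.73 in 5 of the 6 large classes and at 1.34 ± 0.35 in B-like cells. The B-like values of the 6 mice, 0.89 to 1.85, lay below every value of the other 5 classes, the nearest being the T-like value of HFD mouse 2 at 1.88. Every other class was 2.33 to 3.56 above B-like cells, and all 5 of these differences passed (highest limma adjusted p = 0.00179, for NK-like cells, and 0.146 for that pair without the filter on low values). The only other *Itgb1* call, endothelial-like over Kupffer-like by 0.65 ± 0.23 (adjusted p = 0.0371), was lost under 8 alternative settings.

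Both chains of the collagen receptor were also read in each of the 3 endothelial-like clusters. In the first of them (cluster 0) *Itga1* was at 4.80 ± 1.13 (SD, n = 5 mice) and *Itgb1* at 5.12 ± 0.40. In cluster 1 they were at 2.49 ± 0.83 and 3.56 ± 0.90 (n = 6), and in cluster 9, of which 90 cells came from HFD mouse 2, at 2.97 ± 1.36 and 4.73 ± 1.51 (n = 3). Cluster 1 also held the most T cell marker signal, and in it *Itgal* was at 2.94, against 1.82 and 1.24 in the others. The median number of genes was 3087, 2440 and 1796 in clusters 0, 1 and 9. These values are given without a test.

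**Figure D2:**
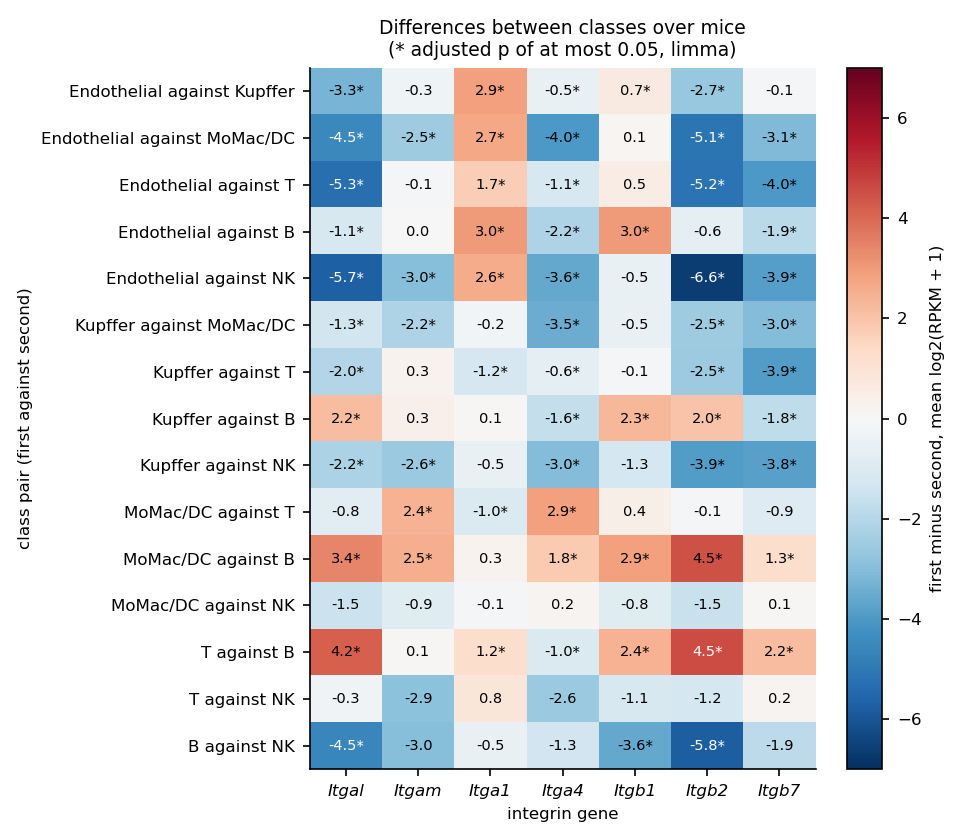
Differences in mean log2(RPKM + 1) between pairs of classes (rows, first minus second) for the 7 integrin genes that passed the filter (columns), with a star where the limma adjusted p was 0.05 or less. Red marks a higher and blue a lower level in the first class. *Itgb1* is starred only against B-like cells and between endothelial-like and Kupffer-like cells, and the row of T against NK cells holds no star.

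No member passed the test between T-like and NK-like cells or between MoMac/DC-like and NK-like cells, where 4 and 2 of 7 had an unadjusted p of 0.05 or less. Of all genes 1.34% and 10.2% were called in these pairs. NK-like cells had 5 or more cells in 4 mice, and in data simulated for T against NK, 0 of 100 genes changed by 2 log2 units were recovered. The simulated data gave 0 calls in all, whereas the measured data gave 57 of 4240 genes, so the simulation does not match the data closely. The absence of member calls in these pairs is no evidence of equal levels.

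Free RNA can place reads of lymphocyte genes in other cells, so the integrins were set beside 6 T cell markers in each class. In B-like cells the mean RPKM of the T markers was 0.709 to 2.95% of that in T-like cells, whereas *Itgal* was at 14.2%, *Itgb2* at 10.6% and *Itgb7* at 57.9%. In Kupffer-like cells the markers were at 1.32 to 3.71%, *Itgal* at 42.3%, *Itgb2* at 32.4% and *Itgb7* at 7.76%. All 3 integrins in these classes stood above the marker range. In endothelial-like cells the markers were at 1.22 to 2.04%, and *Itgal* was at 2.72%, *Itgb2* at 2.95% and *Itgb7* at 5.08%. In hepatocyte-like cells *Itgal* was at 1.56%, *Itgb2* at 0.916% and *Itgb7* at 2.10%, beside markers at 0.601 to 1.27%. In erythrocyte-like cells they were at 1.59%, 1.89% and 2.17%, beside markers at 0.698 to 1.69%. The markers follow RNA of T-like cells only, whereas the integrins were also high elsewhere, with *Itgb2* in NK-like cells at 165% of its T-like mean. The part of free RNA in the levels of any of these classes was not tested.

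**Figure D3:**
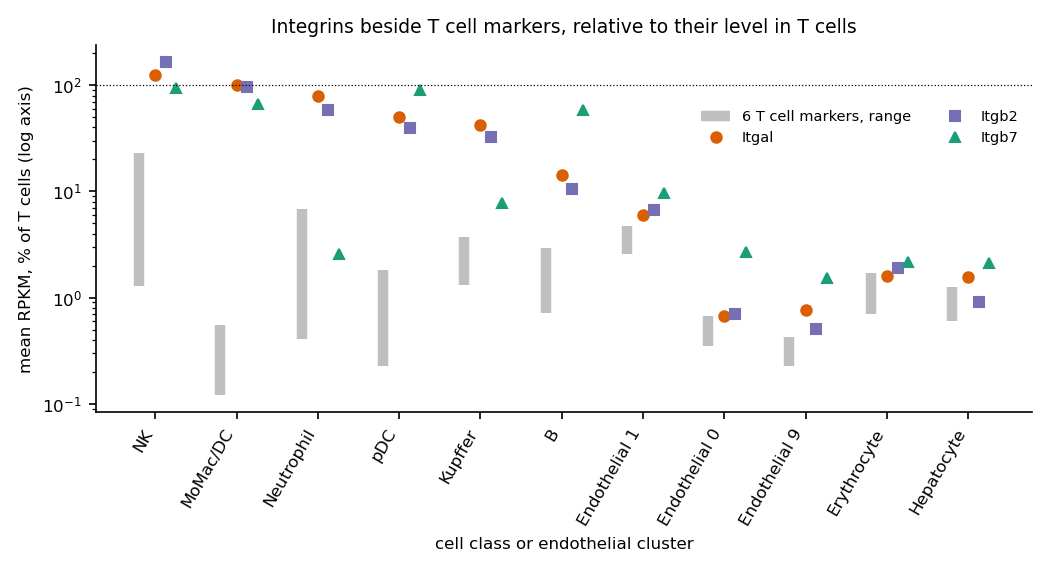
Mean RPKM of *Itgal*, *Itgb2* and *Itgb7* (points) in each class or endothelial-like cluster as a percent of the mean in T-like cells, on a log axis, beside the range of 6 T cell markers (grey bars). In Kupffer-like cells *Itgal* stands at 42.3% above a marker range of 1.32 to 3.71%, while in the endothelial-like clusters 0 and 9 and in hepatocyte-like cells the 3 genes are within a few percent of 0.

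Alpha chains were mostly found with their beta chain in the cells that read both well. Of T-like cells with *Itgal* at 1 RPKM or more, 94.7% had *Itgb2*, of MoMac/DC-like cells 96.3% and of NK-like cells 97.6%. In endothelial-like cells the share was 75.9%. Cells without *Itgal* had *Itgb2* in 86.7% of T-like and 59.6% of endothelial-like cells, and also had fewer genes (medians of 1655 against 2619.5 in T-like cells). The part of depth in these shares was not tested. For *Itga1* and *Itgb1*, 85.8% of endothelial-like and 78.5% of T-like cells with the alpha chain had the beta chain, against 65.4% and 62.9% of those without it. All 37 Kupffer-like cells with *Itgam* had *Itgb2*, against 87.9% of those without it, which had fewer genes (medians of 2753 and 2267.5). These shares are descriptions over cells of all mice.

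T-like cells were then split by *Cd4*, *Cd8a* and *Cd8b1* at 1 RPKM. No member passed in the 3 comparisons of *Cd4*, *Cd8* and double-negative cells (0 of 18 by limma, 3 with an unadjusted p of 0.05 or less), where 0.0617% of all gene tests did. These 3 were *Itga4*, higher in *Cd8* than in double-negative cells by 1.33 ± 0.42 in 5 of 6 mice (adjusted p = 0.49), *Itgb2* between the same subsets, with *Cd8* minus double-negative at -1.36 ± 0.49 (adjusted p = 0.589), and *Itgb2* between *Cd4* and *Cd8* cells. *Cd4* cells were above *Cd8* cells by 1.08 ± 0.42 for *Itgb2* (adjusted p = 0.631), 0.92 ± 0.44 for *Itga1* (adjusted p = 0.762) and 0.75 ± 0.40 for *Itgal* (adjusted p = 0.815). In data simulated for *Cd4* against *Cd8* cells at this gate, 31 of 100 genes changed by 2 log2 units were recovered. Of hepatocyte-like cells, which should lack *Cd4*, 13.9% had it at 1 RPKM and 5.56% at 10 RPKM. With the gate at 10 RPKM, which was not simulated, again no member passed (0 of 18, against 0.178% of all tests), and 6 had an unadjusted p of 0.05 or less. The most distant gene was *Itgb2*. Its *Cd4* values were 8.30, 9.54, 8.64, 8.71 and 6.24 in ND mice 1 to 3 and HFD mice 1 and 2, and its *Cd8* values 5.32, 7.0, 8.11, 7.49 and 3.40. *Cd4* cells were higher in 5 of 5 mice, by 2.02 ± 0.49 (adjusted p = 0.14). *Itga1* (1.69 ± 0.44, adjusted p = 0.192) and *Itgal* (1.23 ± 0.45, adjusted p = 0.498) were also higher in *Cd4* cells in 5 of 5 mice. The other 3 were *Cd8* minus double-negative cells, at -1.70 ± 0.54 for *Itgb2*, -1.34 ± 0.49 for *Itgal* and -1.15 ± 0.43 for *Itga1* (lowest adjusted p = 0.266). Between *Cd4* and *Cd8* cells *Itgb7* differed by 0.04 ± 0.52 (adjusted p = 0.99).

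Among all T-like cells, the 71 with *Itga1* at 10 RPKM had *Cxcr6* at that level in 93%, against 66.8% of the others. This level of *Cxcr6* was also reached in 27.8% of hepatocyte-like, 23.5% of B-like and 21% of endothelial-like cells, and the T-like cells with *Itga1* had more genes (medians of 2850 against 2479.5). They had *Cd4* in 43.7% and *Cd8a* in 5.63%, against 29.1% and 17.2%. These shares were pooled over mice and not tested.

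**Figure D4:**
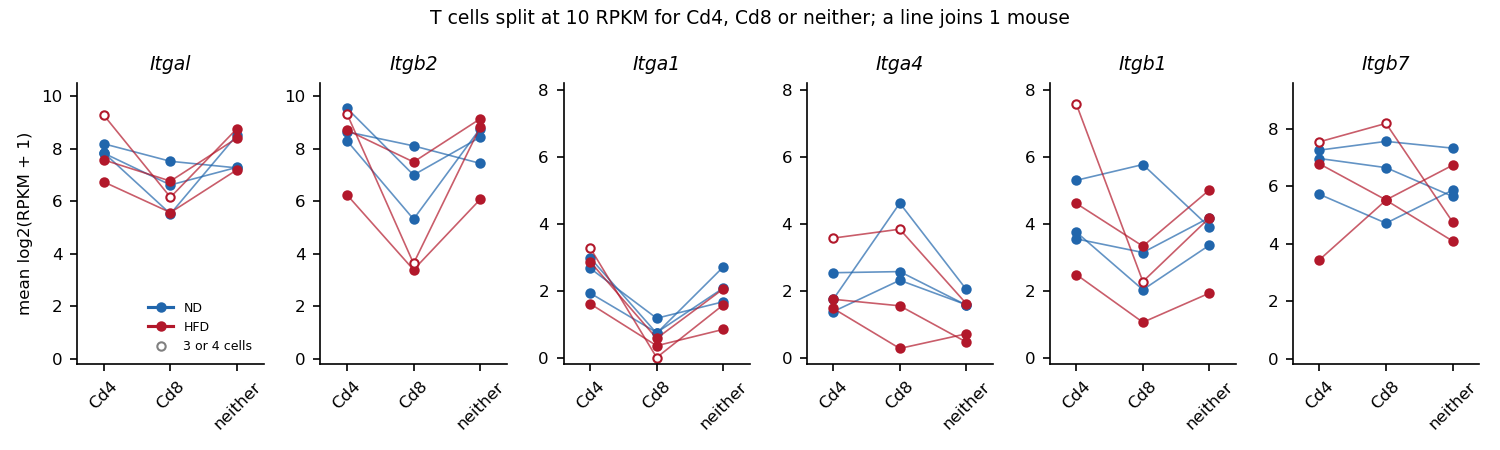
Levels of 6 integrin genes (mean log2(RPKM + 1), vertical axes) in T-like cells gated at 10 RPKM for *Cd4*, *Cd8* or neither. Points are mice (blue ND, red HFD, open with 3 or 4 cells) and lines join a mouse. The 5 mice with at least 5 cells of both kinds have *Itgal*, *Itgb2* and *Itga1* higher in *Cd4* than in *Cd8* cells, and no member passed the test.

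NK-like cells were split by *Eomes*, a factor of conventional NK cells. The 22 cells with *Eomes* at 1 RPKM had *Itgb1* at 10 RPKM in 72.7% and *Itgb7* in 45.5%, and the 20 without it in 45% and 70%. Only ND mouse 1 and HFD mouse 2 had 5 cells of both kinds. In them *Itgb1* was at 5.92 and 4.31 with *Eomes* and at 3.55 and 1.91 without, and *Itgb7* at 4.10 and 2.10 with and at 5.55 and 3.85 without, so both genes kept their direction in these 2 mice, of which 1 is HFD mouse 2. *Itga4* (2.93 and 3.73 with, 5.90 and 5.18 without) and *Itgax* kept their direction too. *Itga1* turned, at 0.45 and 2.02 with and at 1.72 and 0.45 without, and so did *Itgal*, *Itgb2* and *Itgam*. With 2 mice no test was run.

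Kupffer-like cells with *Timd4*, a receptor of long-resident macrophages, were compared with those under 1 RPKM. No member passed (0 of 5 by limma, 1 with an unadjusted p of 0.05 or less, against 0.0622% of all genes). *Itgal* was 1.04 ± 0.43 higher in *Timd4* cells, in 5 of 5 mice (adjusted p = 0.428). *Itgb2* differed by -0.07 ± 0.40 (adjusted p = 0.979) and *Itga4* by -0.13 ± 0.42 (adjusted p = 0.954). With *Timd4* gated at 10 RPKM the count was again 0, against 0.0313% of all genes.

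The rest of the adhesion machinery was read from lists of other integrin chains, ligands, and activation and linkage genes. Of 17 other integrin chains 15 had a row in the table and 3 passed the filter, *Itga5*, *Itga9* and *Itgb5*, and 23 of their 45 class tests were called (51.1%, against 32.5% of the tests of all genes). *Itga9*, an alpha chain that pairs with *Itgb1*, was 3.74 ± 0.23 higher in endothelial-like than in T-like cells (limma adjusted p = 6.53e-11). Of 150 tests of 10 ligands, 66 were called (44%, against 32.5%). *Thy1*, a T cell surface protein that integrins bind, gave the 4 largest of these differences. It was at 7.39 in T-like cells, against 0.90 in MoMac/DC-like cells (a difference of -6.48 ± 0.33, limma adjusted p = 2.84e-08), 1.12 in Kupffer-like, 1.18 in endothelial-like and 1.29 in B-like cells. *Icam2*, a ligand of LFA-1, was in turn higher in endothelial-like than in Kupffer-like cells (4.80 against 1.68), T-like cells (2.26) and MoMac/DC-like cells (1.73), with adjusted p-values under the threshold in all 3. B-like cells, at 3.93, did not pass against endothelial-like cells (adjusted p = 0.0636). *Icam1* was at 2.21 in endothelial-like and 2.25 in T-like cells (adjusted p = 0.896). The fibrinogen chains *Fga*, *Fgb* and *Fgg*, transcripts of hepatocytes, were called higher in Kupffer-like than in endothelial-like cells, and beside this 5 of 7 hepatocyte markers were higher in Kupffer-like cells than in the other cells. The part of hepatocyte RNA in these calls was not tested.

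Of 21 activation and linkage genes tested in 15 pairs of classes, 150 tests were called, or 47.6%, against 32.5% of the tests of all genes. *Skap1*, an adaptor that carries T cell receptor signals to LFA-1, was 5.54 ± 0.30 lower in MoMac/DC-like than in T-like cells (limma adjusted p = 3.86e-08).

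The profile of each member over the 10 class means was also compared with that of the other genes by Pearson's r, as a description over 10 points that share libraries and depth. The nearest gene to *Itgb2* was *Pdlim2* (r = 0.98), followed by *Bin2* (0.96) and its own partner *Itgal* (0.96). *Itgal* was nearest to *Bin2* and *Itgb2* (both 0.96). For *Itgam* it was *Nfil3* (0.99), for *Itga1* *Rcn1* (0.97), for *Itgb7* *Unc119b* (0.97), for *Itgb1* *Eif4e3* and for *Itga4* *Dapp1* (both 0.93). *Itgax* and *Itgae*, at low levels, were nearest to *Mir3076* (0.95) and *Zdhhc18* (0.91).

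The study set HFD against ND mice. No integrin passed in any of 5 classes (0 of 28 tests by limma, 0 with an unadjusted p of 0.05 or less, against 0.00487% of all gene tests), and the exact test of 3 mice against 3 cannot go below 0.1. In these 28 tests the values overlapped between the diets. *Itgae* in endothelial-like cells, under the filter and so not among them, was at 0.29, 0.26 and 0.33 in ND mice and at 0.11, 0.00 and 0.04 in HFD mice, without overlap but near the floor. The share of all genes without overlap was not worked out, so neither statement is read as a result about the members. The largest mean difference was *Itgb7* in MoMac/DC-like cells. The ND mice were at 7.39, 4.59 and 5.88 and the HFD mice at 6.41, 3.61 and 2.63, a difference of -1.74 ± 0.94 (adjusted p = 1.0, exact permutation p = 0.3). *Itgb2* and *Itgb7* had the lower mean in HFD mice in 5 of 5 classes, by 0.51 to 1.03 and by 0.64 to 1.74 (log2 scale), with no test passed. The median gene was also lower in HFD mice in each class, by 0.12 to 0.31. Without HFD mouse 2, the mouse with the fewest genes a cell, *Itgb2* in T-like cells went from -0.68 to 0.15 and in endothelial-like cells from -0.51 to -0.02. It stayed lower in Kupffer-like (-0.62), MoMac/DC-like (-1.05) and B-like cells (-0.73), and *Itgb7* stayed lower in 5 of 5 classes, between -1.44 and -0.20.

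In the other direction, *Itga1* was 0.40 ± 0.52 higher in endothelial-like cells of HFD mice (3.74 against 3.34, limma adjusted p = 1.0). The endothelial-like clusters, which had unequal *Itga1* levels, were also unequally filled: cluster 1, with the lowest level, held 72, 25 and 16 cells of the ND mice and 26, 6 and 30 of the HFD mice, and cluster 9 held 0, 6 and 1 against 5, 90 and 0. Their part in the difference was not tested. *Itgam* in MoMac/DC-like cells was 0.52 ± 0.85 higher (2.92 against 2.4, adjusted p = 1.0) and *Itgal* in Kupffer-like cells 0.33 ± 0.46 higher (5.77 against 5.45, adjusted p = 1.0). Without HFD mouse 2 the *Itga1*, *Itgam* and *Itgal* differences were 0.81, 1.17 and 0.47. With all 6 mice, *Itgal* was lower in HFD mice in 3 of 5 classes, by -0.87 in MoMac/DC-like, -0.37 in B-like and -0.32 in endothelial-like cells. *Itga1* in T-like cells was at -0.51, and *Itga4* was lower in 4 of 4 classes. The difference of the diet effects between 2 of the endothelial, Kupffer, T and B-like classes was tested 34 times, and 0 passed (0 with an unadjusted p of 0.05 or less, against 0% of all gene tests). In data simulated for the diets, 27 of 100 genes changed by 2 log2 units were recovered in Kupffer-like cells and 0 of 100 in T-like cells. The MoMac/DC-like class, which held the largest difference, was not simulated.

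**Figure D5:**
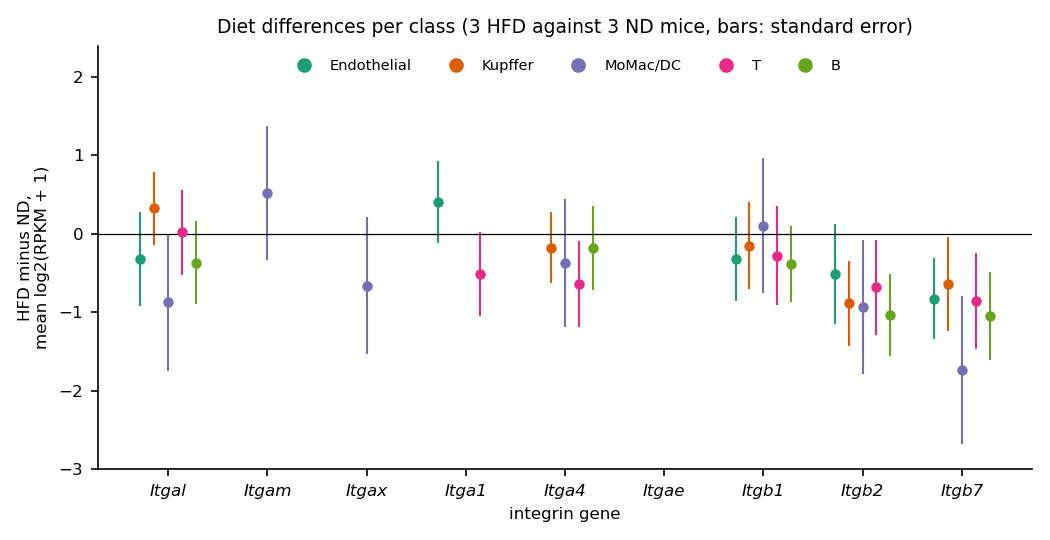
Difference in mean log2(RPKM + 1), HFD minus ND, for each integrin gene (horizontal axis) in 5 cell classes (colors). Points are differences of 3 against 3 mice and bars the limma standard error, and members under the filter of a class have no point. The *Itgb2* and *Itgb7* points lie below 0 in 5 of 5 classes, and the widest, *Itgb7* in MoMac/DC-like cells, is -1.74.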

How the data were processed

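Non-parenchymal liver cells of 6 mice were profiled by Smart-seq2. The authors used STAR with mm10 and unique alignments, computed RPKM with rpkmforgenes on RefSeq genes, filtered cells and removed doublets called by Scrublet before they deposited the RPKM table. The label of each cell gives its mouse. RPKM are not counts. Read numbers were estimated from low values, which are multiples of the value of 1 read (63.0% of low values within 0.05 of a whole multiple, 10.7% with shuffled transcript lengths), and too few were whole for a count test.

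Cells were clustered on 1000 variable genes (integrins and adhesion lists left out), 20 principal components and a graph of 15 neighbors, by spectral clustering into 15 clusters. A cluster took the name with the most markers at least 1 log2 unit up, if at least 3, and stayed unnamed where its leading genes went against it. This scoring was set after clusters were seen. Names rebuilt in this way need not match the study's. K-means clustering put 96.1% of cells in the same class, and 10 components 89.6%.

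Values were log2(RPKM + 1), averaged per population and mouse for mice with at least 5 cells. The pseudocount makes differences understate changes of low genes. Classes and subsets were compared in limma 3.58.1 (R 4.3.3) with the mouse as a term, and diets without it, over genes with a mean of at least 1, with Benjamini-Hochberg adjustment over all genes tested in a comparison and a threshold of 0.05. Single values also got exact two-sided permutation tests over mice. The fit was tested on simulated data for T against B (4068 genes), where 96% of genes changed by 2 log2 units and 54% changed by 1 were recovered. For T against NK (4157 genes), T_Cd4 against T_Cd8 (4307), Kupffer diet (3255) and T diet (4364), the shares at 2 log2 units were 0, 31, 27 and 0%. The planned test between 2 endothelial clusters was not run, because clustering gave 3. A planned split of T cells, and some genes of the adhesion lists, are not reported here.

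The 9 members, all 9 described, and the gene lists were chosen with earlier results of these data known. For each member the 3 genes nearest by profile, and for each list reported up to 4 largest called differences, were named, with *Icam1*, *Icam2* and the fibrinogen chains added after their values were seen. Promoters came from RefSeq (GRCm38.p6). All replicates are mice, so tests measure the spread between mice.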

Additional observations from a re-analysis of the deposited data

Results flagged for a closer look

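Of 54 groups of 4 to 6 mice in which a member's level could be examined for a mouse far from the others, 6 held such a mouse by Dixon's criterion, which chance passes in about 1 of 20 groups. *Itgb2* in T-like cells of HFD mouse 2 was at 5.80, with the next mouse at 7.92, and this mouse had the fewest genes a cell. *Itgam* in T-like cells of HFD mouse 1 was at 0.677, with the next at 0.214. *Itga1* in Kupffer-like cells of HFD mouse 3 was at 1.33, with the next at 0.60. The other 3 were *Itgae* values beside mice at or near 0: 0.116 in Kupffer-like cells of ND mouse 2, 0.265 in MoMac/DC-like cells of HFD mouse 2 and 0.610 in NK-like cells of ND mouse 3, a mouse with 6 such cells. The causes were not tested.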

How the results depend on the processing

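The count of class calls, 65, ran from 46 to 74 over 16 alternatives, with 53 to 72 when 1 mouse was left out. The lowest count came from clustering on 10 components, which named no NK-like cluster and so gave 10 pairs. Of 1004 values of the 65 called differences under these alternatives, 925 kept the call, 79 lost it and 0 reversed, and 41 differences were called under all of those that gave them a value (on 10 components, pairs with NK-like cells and those of *Itgam* had none). Those lost most often were *Itga1* between MoMac/DC and T, *Itgal* between Kupffer and MoMac/DC and *Itgb7* between MoMac/DC and B (9 each), and *Itga4* between Kupffer and T and *Itgb1* between endothelial and Kupffer (8 each). The causes were not tested. Rescaling each cell to the same sum moved the median of all genes by over 0.1 in 2 of 15 pairs, by 0.13 for endothelial against Kupffer and by -0.11 for Kupffer against MoMac/DC.

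The counts for *Cd4* and *Cd8* subsets, *Timd4* and the diets stayed at 0, with 0 when 1 mouse was left out. The difference of diet effects also stayed at 0. Mice of the 2 diets share the numbers 1 to 3. Same-numbered mice did not deviate together (mean correlations of 0.05, 0.03 and 0.04), so the numbers give no pairing, and with the replicate block 0 of 28 diet tests and 0 of 34 differences of diet effects passed, 2 and 0 with an unadjusted p of 0.05 or less. Depth limits low genes: 1 read was worth about 2.0 RPKM for *Itgax* and 3.01 for *Itgb7* in the median cell.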
